A study of Homo sapiens with 12 samples.

Results

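The response of LNCaP cells to a piR-4447944 mimic was measured by mRNA sequencing in 6 of the 12 libraries of the series. LNCaP is an androgen-sensitive prostate cancer (PCa) cell line of luminal character. All 6 libraries came from cells deprived of androgen in 10% CS-FBS, serum stripped of its steroids with charcoal, 3 transfected with a negative control oligo (NC-mimic) and 3 with the piR-4447944 mimic. The mimic was an RNA oligo of the mature piRNA sequence carrying a monophosphate and 2′ O-methoxy groups, delivered with lipofectamine, and the study asked which mRNAs change with it. The other 6 libraries were of 22Rv1, another PCa line, given the same 2 oligos in the same medium. No label says that replicates were separate cultures, so the p-values measure only the spread between these libraries. LNCaP is a single line, and no untransfected library was analysed here.

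PIWI-interacting RNAs (piRNAs) are small RNAs known from the germ line, where PIWI proteins carry them to silence transposons and other transcripts. Short RNAs delivered by transfection can also meet the sensors of the innate immune system. In that system the cytosolic helicases RIG-I and MDA5 act through MAVS and IRF3 to induce interferon and, directly, many interferon-stimulated genes (ISGs). Secreted type I interferon acts through receptor kinases such as JAK1 and a complex that holds IRF9, and this complex binds the interferon-stimulated response element (ISRE) in ISG promoters.

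The libraries held between 14894247 and 19739559 expected counts, and 22370 to 23558 genes had at least 1 count. Mitochondrial transcripts took between 4.24% and 5.33% of the counts. All 12 of 12 luminal prostate markers passed the filter on low counts, with a summed level of 5459 to 5817 TPM in the NC-mimic and 5406 to 5540 TPM in the mimic libraries. Defining markers of other cells were at 0 counts in all 6 libraries, namely PTPRC of leukocytes, KRT5 of basal epithelium, COL1A2 of fibroblasts and CDH5 of endothelium. Of these marker lists, 1 of 6 leukocyte, 3 of 6 fibroblast, 1 of 4 basal and 1 of 4 endothelial genes passed the filter. Their summed levels overlapped between the groups, at 2.17 to 3.64 against 1.5 to 6.06 TPM for leukocytes, 31.4 to 40.5 against 26.0 to 44.5 TPM for fibroblasts, 2.14 to 4.59 against 2.11 to 2.78 TPM for basal epithelium and 0.79 to 1.18 against 0.83 to 1.89 TPM for endothelium. In bulk RNA, fewer cells of a type and less RNA per cell cannot be told apart.

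A gene was called where edgeR's quasi-likelihood test gave an unadjusted p under 0.05 with an absolute log2 fold change over 0.2. The study set these limits on DESeq2 values whose log2 fold changes had been shrunk, whereas here they were set on edgeR's unshrunken values. Of 16244 genes tested, 224 (1.38%) were called higher and 137 (0.843%) were called lower with the mimic. The changes were small: among called genes with a mean of at least 5 CPM (counts scaled to library size), the median absolute log2 fold change was 0.32 for the 142 higher and 0.28 for the 86 lower genes. No gene had a Benjamini-Hochberg adjusted p under 0.05 in edgeR's test, where 433 genes had an unadjusted p under 0.05, and 2 genes did in DESeq2. With the shrunken log2 fold changes of DESeq2 the same limits called 2 genes higher, IFI6 (0.26) and ISG15 (0.23), and 0 lower. The calls named here are therefore calls by edgeR's unshrunken values, and not at a controlled false discovery rate. The counts depended on single libraries: without NC-mimic replicate 3 they were 674 higher and 334 lower, and without mimic replicate 3 the lower count was 237.

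The named genes with the smallest p, IFI6 and ISG15, were ISGs, and GPER1, AL157935.2 and ATP5ME, which are not in the ISG list, came next. IFI6, an interferon-induced mitochondrial and endoplasmic reticulum protein that restrains apoptosis (ENSG00000126709.15, 1:27666064-27672212, hg38), read 20.3, 17.7 and 20.4 CPM in the NC-mimic libraries and 33.3, 37.3 and 29.3 CPM in the mimic libraries. ISG15, a ubiquitin-like modifier (ENSG00000187608.10, 1:1001138-1014540), read 74.0, 62.3 and 73.1 CPM with NC-mimic and 108, 106 and 85.4 CPM with the mimic. For both genes each mimic library lay above each NC-mimic library. IFI6 was higher by a log2 fold change of 0.78 ± 0.11 (SE) with an edgeR Benjamini-Hochberg adjusted p = 0.193, the smallest of all genes. ISG15 was higher by 0.51 ± 0.10, with an adjusted p = 0.999 in the same test. Every other named gene that was tested also had an adjusted p = 0.999 in edgeR's test, and values after ± are standard errors throughout. An exact two-sided permutation test gave p = 0.1 for IFI6 and for ISG15, the smallest that 3 against 3 libraries allow.

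Effector genes that act on viral RNA or particles were also called higher. IFIT2, which binds RNA and restrains its translation, read 22.3, 20.7 and 19.0 CPM with NC-mimic and 33.3, 35.3 and 23.6 CPM with the mimic, without overlap (log2 fold change 0.57 ± 0.14). IFIT1, which binds RNA lacking cap methylation, read 20.6, 22.3 and 13.8 CPM against 37.3, 30.8 and 19.9 CPM, and its groups overlapped through mimic replicate 3 (0.62 ± 0.21). HERC5, the ligase that attaches ISG15 to proteins, read 7.06, 8.11 and 5.65 CPM against 10.5, 10.7 and 9.23 CPM without overlap (0.54 ± 0.17). The membrane tether BST2 was scarce, at 0.88, 1.44 and 0.61 CPM against 3.04, 2.82 and 1.67 CPM (1.34 ± 0.40, from 55 and 120 counts in all). IFITM1, which hinders viral entry, was also scarce, at 2.17, 2.00 and 1.46 CPM against 2.7, 4.96 and 2.71 CPM (0.88 ± 0.32). HELZ2, a nuclear helicase and coactivator, differed least, at 59.7, 59.2 and 67.5 CPM against 70.2, 75.1 and 71.5 CPM (0.22 ± 0.08). Called in the 6 fits that each leave out 1 library were IFI6, ISG15, IFIT2, BST2 and HERC5 in 6, IFIT1 in 5, IFITM1 in 4 and HELZ2 in 3.

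**Figure D1:**
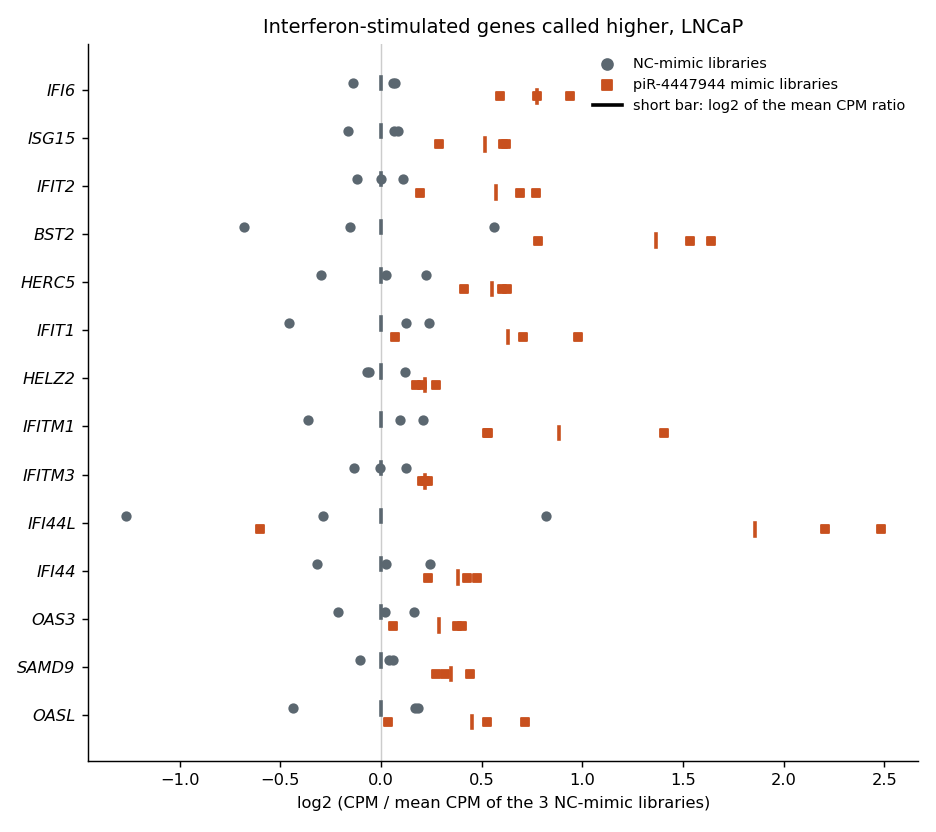
The 14 ISGs called higher in LNCaP, ordered by p, with the log2 ratio of each library's CPM to the mean CPM of the 3 NC-mimic libraries on the x axis, circles for NC-mimic, squares for the mimic and short bars for the group means. The genes were chosen as called in these same libraries. The mimic libraries lay above every NC-mimic library in 9 of the 14, beside 175 of all 224 genes called higher. Mimic replicate 3 was the lowest mimic library in 9, and NC-mimic replicate 3 the lowest NC-mimic library in 9.

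Over the whole ISG list, 39 of 46 members passed the filter, 14 (35.9%) were called higher and 0 lower, against 1.38% and 0.843% of all genes tested. The median log2 fold change was 0.24 with quartiles of 0.12 and 0.54, beside a median of -0.0027 over all genes, and 33 of the 39 lay above 0. The other 6 called members, named after their values were seen, were IFI44L (1.80 ± 0.68), OASL (0.44 ± 0.18), IFI44 (0.38 ± 0.15), SAMD9 (0.35 ± 0.14), OAS3 (0.29 ± 0.11) and IFITM3 (0.22 ± 0.08). OAS3 makes the oligoadenylate that activates RNase L. IFI44L rested on mimic replicates 1 and 2, at 2.02 and 2.45 CPM, while replicate 3 read 0.29 CPM, within the 0.18 to 0.77 CPM of the NC-mimic libraries. All 3 mimic libraries lay above all 3 NC-mimic libraries in 10 of the 39 members, against 4.06% of all genes. The 25 members not called ranged from -0.08 to 1.05, with 19 above 0. The 7 members below the filter held few counts in each group, for example 14 and 4 for MX2 and 5 and 18 for XAF1.

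The level of the ISGs differed among the libraries of each group. The mean log2 level of the list, relative to the NC-mimic mean, was 0.05, 0.04 and -0.10 in the NC-mimic libraries and 0.37, 0.43 and 0.12 in mimic replicates 1, 2 and 3. The groups did not overlap, but mimic replicate 3 lay nearer to NC-mimic replicate 1 than to the other mimic libraries. Replicate 3 had the lowest mean in both groups. Among the 14 called ISGs it was the lowest NC-mimic library in 9 and the lowest mimic library in 9. With a term for replicate number 18 ISGs were called, at a median log2 fold change of 0.25. Without mimic replicate 2, 7 ISGs were called, and without mimic replicate 3, 19 were. The median log2 fold change stayed between 0.24 and 0.27 in all 6 fits that each leave out 1 library. Fewer ISGs were called by other fits, 1 with all 12 libraries in 1 fit, 2 with DESeq2 and 7 with limma on log2(TPM + 1).

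The promoters of these genes were searched for the core of the ISRE, spelled GAAANNGAAA, on both strands of the RefSeq windows (GRCh38.p14) that run from 250 bases before to 50 after a gene's first listed start. The motif was in 996 of 27305 promoters (3.65%) and in 301 of the 11040 tested genes whose symbol matched a promoter (2.73%). Of 14 called ISGs, 12 matched a promoter, and 11 of these (91.7%) held the motif. It was also in 11 of 20 (55%) of the ISGs not called, in 5 of 127 (3.94%) of the genes called higher outside the list, and in 4 of 87 (4.6%) of those called lower. Thus the motif was frequent in the list as such, while other called genes held it about as often as all promoters. A match describes these letters only and is not evidence of binding. The site nearest the start is shown for 6 of the ISGs described above, each as 30 bases 5′ to 3′ along the strand of the gene, with the motif in capitals, to show the letters that most of the ISGs with a matched promoter held.
IFI6: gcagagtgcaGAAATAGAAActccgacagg
ISG15: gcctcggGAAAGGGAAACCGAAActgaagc
BST2: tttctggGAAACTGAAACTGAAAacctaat
HERC5: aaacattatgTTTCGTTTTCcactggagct
IFIT1: cactttccccTTTCGGTTTCcctaggtttc
IFITM1: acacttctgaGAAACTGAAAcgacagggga
These stretches lie at chr1:27672266-27672295 on the minus strand for IFI6, chr1:1013377-1013406 on the plus strand for ISG15, chr19:17405738-17405767 on the minus strand for BST2, chr4:88457035-88457064 on the plus strand for HERC5, chr10:89392510-89392539 on the plus strand for IFIT1 and chr11:314024-314053 on the plus strand for IFITM1. In ISG15 and BST2 the capitals are 2 overlapping matches. In HERC5 and IFIT1 the motif is on the opposite strand and so reads as its reverse complement. The motif began 93 bases before the start in IFI6, 113 in ISG15, 130 in BST2, 74 in HERC5, 103 in IFIT1 and 6 in IFITM1. IFI6 held 3 separate sites, the farthest 156 bases before the start, and HELZ2 held no match in its window.

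Some sensors and signalling genes upstream of the ISGs were also called, in both directions. Among 16 tested genes of RNA and DNA sensing, 2 were called higher and 1 lower, against 1.38% and 0.843% of all genes. Their median log2 fold change was 0.07. DDX58, which encodes RIG-I and is itself interferon-inducible, read 24.4, 25.8 and 23.0 CPM with NC-mimic and 29.5, 29.2 and 29.4 CPM with the mimic (0.27 ± 0.09). IFIH1, which encodes MDA5, was called lower, at 17.2, 20.8 and 18.1 CPM against 15.1, 17.3 and 13.6 CPM, with overlapping groups (-0.28 ± 0.13). IRF3, the factor downstream of both sensors, read 59.0, 49.2 and 62.7 CPM against 67.0, 69.8 and 62.9 CPM (0.23 ± 0.09). The IRF3 groups were separated by less than 1 CPM. DDX58 was called in 6 of 6 fits that leave out a library, and IRF3 and IFIH1 in 3 each.

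Interferon itself was close to absent. IFNB1 had 4 counts over the NC-mimic and 9 over the mimic libraries, and IFNA1, IFNG and the lambda receptor gene IFNLR1 had 0 in all 6. The 14 tested genes for interferons, their receptors and JAK-STAT signalling had a median log2 fold change of 0.12. Of these, 1 was called higher, against 1.38% of all genes. This was IRF9, the DNA-binding part of the interferon complex, at 10.4, 7.08 and 5.47 CPM against 15.2, 12.2 and 9.41 CPM (0.67 ± 0.23). Its groups overlapped, and it shares a locus and strand with AL136295.5, whose log2 fold change was -0.38, so the estimated counts may divide reads between them. JAK1, the kinase of interferon receptors, was low in this line at 3.30 to 4.36 TPM and was not called (0.12 ± 0.14).

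Antigen display and NF-kB targets also held genes called higher, beside 1.38% of all genes tested. Of 17 tested HLA class I and antigen processing genes, 2 were called higher, HLA-F (0.59 ± 0.19) and HLA-B (0.25 ± 0.10), and the median log2 fold change was 0.07. With 1 library left out, 1 to 6 were called. HLA genes are near copies of each other, so their counts are uncertain. Of 14 tested NF-kB targets, 3 were called higher and the median log2 fold change was 0.27, with quartiles of 0.05 and 0.40. NFKBIA, the inhibitor that NF-kB itself induces, read 51.6, 51.8 and 52.5 CPM with NC-mimic and 61.2, 60.3 and 60.7 CPM with the mimic (0.22 ± 0.07). NFKBIA thus had little spread in either group, and it was called in 6 of 6 fits that leave out a library. BIRC3, an apoptosis inhibitor (0.26 ± 0.10), and CCL20, a chemokine (0.29 ± 0.12), were also without overlap and were called in 3 and 4 of 6. With 1 library left out, 1 to 4 members were called. Many other members were barely expressed, among them IL6 with 0 counts in all 6 libraries. The NFKBIA promoter held the kappaB letters GGGANTTTCC, found in 158 of 27305 promoters (0.579%), and the windows of BIRC3 and CCL20 held no match. The NFKBIA site, shown as the single match among the called targets and lying on the opposite strand at chr14:35404811-35404840, was as follows, with the motif in capitals.
NFKBIA: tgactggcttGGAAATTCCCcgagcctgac

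The ISG response was set beside that of 22Rv1. In that line 27 members of the list passed the filter, 0 were called higher where 135 of 16898 genes (0.799%) were, and the median log2 fold change was -0.09 with 10 of 27 above 0. Of the 14 ISGs called in LNCaP, 7 were tested in 22Rv1 and all 7 lay below 0 there, from -2.10 to -0.09. Among them ISG15 (-0.09 ± 0.16), HELZ2 (-0.10 ± 0.37) and BST2 (-0.26 ± 0.91) were within 1 standard error of 0. IFITM1 was at -2.10 ± 1.00. IFI6, IFIT2 and IFIT1 were not tested in 22Rv1. A fit over all 12 libraries tested the difference itself. It gave an unadjusted p under 0.05 in the direction of a higher response in LNCaP for 6 of 39 members, against 1.54% of 18720 genes. The 39 are the members past the LNCaP filter, out of 42 in that fit, whereas the 18720 are all its genes. Of the 6 members, SAMD9, IFIT3 and OAS2 did not pass the filter in 22Rv1, and their differences are not given. Among the 27 members tested in both lines 3 remained, against 1.13% of 14757 genes, namely ISG15 (difference 0.60 ± 0.20), IFITM1 (2.98 ± 1.11) and IFITM3 (0.85 ± 0.25). None passed adjustment (adjusted p = 1.00 for each). No gene of that fit had an adjusted p under 0.05 in edgeR's test, the smallest being 0.665, where 610 had an unadjusted p under 0.05. The spread between replicates was wider in 22Rv1, where the biological coefficient of variation was 0.343, than in LNCaP, where it was 0.0964.

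**Figure D2:**
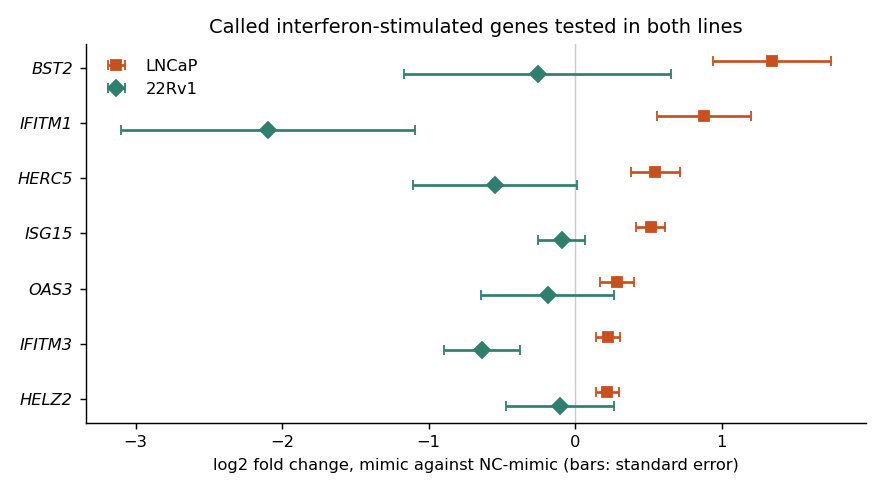
Log2 fold change of mimic against NC-mimic, with its standard error as bars, in LNCaP (squares) and 22Rv1 (diamonds) for the 7 ISGs called in LNCaP that were also tested in 22Rv1. The LNCaP values lie above 0 because called genes were chosen, and the 22Rv1 values lay between -2.10 and -0.09 with wide errors for BST2 and IFITM1.

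Genes of cell stress formed another group of small calls, in lists that share ATF3 and SLC7A11. Over all genes tested, 1.38% were called higher and 48.99% lay above 0. Of 27 tested ATF4 targets, which answer amino acid shortage and protein misfolding, 3 were called higher, 22 lay above 0 and the median log2 fold change was 0.07. With 1 library left out, 3 to 7 were called, 16 to 23 lay above 0 and the median was between 0.03 and 0.13. SLC7A11, the cystine transporter that feeds glutathione synthesis, read 104, 103 and 100 CPM with NC-mimic and 120, 122 and 126 CPM with the mimic (0.26 ± 0.06). ATF3, a stress-induced transcription factor, read 29.8, 35.1 and 32.4 CPM against 41.1, 42.5 and 39.7 CPM (0.34 ± 0.09). DDIT3, the factor CHOP of the unfolded protein response, read 28.5, 30.1 and 27.1 CPM against 36.4, 36.1 and 32.3 CPM (0.29 ± 0.09). For all 3 the groups did not overlap, and each was called in 6 of 6 fits that leave out a library. ATF4 itself, whose activity is set mainly by translation, had a log2 fold change of -0.04.

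Immediate early genes, the first to answer growth factors and stress, had a median log2 fold change of 0.15, with 17 of 21 above 0. The 3 called higher, against 1.38% of all genes, were ATF3, KLF4 (0.42 ± 0.15) and JUN (0.23 ± 0.09), and the JUN groups overlapped. With 1 library left out, 2 to 6 members were called and the median was between 0.07 and 0.22, and JUN was called in 2 of 6 such fits and KLF4 in 5. Among 21 tested NRF2 targets, 2 were called higher, against 1.38% of all genes. They were SLC7A11 and FTH1, the ferritin heavy chain that stores iron. FTH1 was among the most abundant transcripts at a mean of 5432 TPM with the mimic, and read 1638, 1602 and 1526 CPM against 1864, 1914 and 1745 CPM (0.21 ± 0.06). No member was called among 20 endoplasmic reticulum chaperones, although 19 of 20 lay above 0 at a median of 0.06. That count was between 12 and 18 of 20 with 1 library left out. Heat shock chaperones (17 tested) and p53 targets (25 tested) had 0 called members and medians of -0.0038 and 0.03. With 1 library left out these lists had up to 1 and up to 3 members called higher.

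The androgen programme, cell cycle and lipid synthesis showed no called member in most lists. Over all genes tested, 1.38% were called higher and 0.843% lower, and 48.99% lay above 0. Of 30 tested androgen-induced genes, 0 were called, 25 lay below 0 and the median log2 fold change was -0.05. This median became 0.0030 without mimic replicate 3, and was -0.04 without replicate 3 of both groups. KLK3, which encodes prostate-specific antigen, read 1766, 1650 and 2019 CPM with NC-mimic and 1629, 1685 and 1774 CPM with the mimic (-0.10 ± 0.07), and the groups overlapped. S phase genes (43 tested), G2 and mitosis genes (54 tested) and G1 regulators (18 tested) had 0 called members, with medians of -0.02, 0.02 and 0.05. The S phase median had no stable sign with 1 library left out. It was -0.12 with 5 of 43 above 0 and 2 called lower without NC-mimic replicate 3. Without mimic replicate 3 it was 0.11 with 39 of 43 above 0. The mean log2 level of this list was lowest in replicate 3 of both groups, at -0.23 and -0.26 relative to the NC-mimic mean. Leaving out 1 of them alone therefore moved the groups apart. Without replicate 3 of both groups the S phase median was 0.0075, and with a term for replicate number it was -0.02. The G2 and mitosis median ran from -0.03 without mimic replicate 1 to 0.08 without NC-mimic replicate 2, where 4 genes were called higher. The proliferation marker MKI67 was at 0.0013 ± 0.11. Fatty acid synthesis and desaturation genes had 0 of 17 called but 15 below 0, at a median of -0.05. With 1 library left out, 0 to 4 were called lower, 2 to 6 lay above 0 and the median was between -0.08 and -0.04. STARD4, a cholesterol transfer protein, was the 1 sterol gene of 23 called, and was lower (-0.31 ± 0.12).

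Other metabolic lists held single calls, beside 1.38% of all genes called higher and 0.843% called lower. PDK1, which restrains pyruvate entry into mitochondria, was called higher among 22 glycolysis genes (0.22 ± 0.10), in 1 of 6 fits that leave out a library. MXI1, an antagonist of MYC, was called lower among 22 hypoxia-inducible factor targets outside glycolysis (-0.23 ± 0.08). The reference gene GAPDH was not called (0.04 ± 0.05).

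The small RNA machinery was low or not called. Of 20 genes of the PIWI and piRNA pathway, 8 passed the filter and 1 was called lower, against 0.843% of all genes. This was TDRD6, a germ cell Tudor protein, at 73 and 31 counts over the groups (-1.04 ± 0.43). It was called in 2 of 6 fits that leave out a library. PIWIL2 had 48 counts over the NC-mimic and 32 over the mimic libraries (-0.41 ± 0.51), PIWIL4 had 2 and 0, and PIWIL1 and PIWIL3 had 0. AGO2, the Argonaute that cleaves targets of small RNAs, read 227, 211 and 218 CPM against 202, 211 and 208 CPM (-0.08 ± 0.06). In TPM, AGO2 averaged 36.5 with NC-mimic and 25.9 with the mimic, a larger relative fall than in CPM. The 14 tested Argonaute and microRNA processing genes had 0 calls and a median of -0.04, whereas limma on log2(TPM + 1) called 2 of them lower. NEFH, a neurofilament subunit, had 18 and 7 counts and did not pass the filter, and the 8 tested neurofilament and neuroendocrine genes had 0 calls.

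Lists of cell movement and survival held at most 1 call each, where 1.38% of all genes tested were called higher and 0.843% lower. In the migration and matrix list 1 of 24 genes was called, CXCR4, the chemokine receptor of homing cells, at 74 and 36 counts (-0.84 ± 0.37), in 0 of 6 fits that leave out a library. Epithelial-mesenchymal transition factors (14 tested), TGF-beta targets (16 tested), Wnt targets (10 tested) and promoters of apoptosis (23 tested) had 0 called members, with medians between -0.02 and 0.04. Among 9 tested restrainers of apoptosis 1 was called higher, BIRC3, which is also in the NF-kB list. In all, 23 of the 40 lists had no called member, and their medians lay between -0.08 and 0.07.

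Few of the 137 genes called lower (0.843% of those tested) belonged to a list. Of the 40 lists, 5 held a member called lower, 1 in each. The named lower gene with the smallest p was GPER1, a membrane receptor for oestrogen, at 39.9, 38 and 34.7 CPM with NC-mimic and 24.2, 30.3 and 21.6 CPM with the mimic, without overlap (-0.57 ± 0.12). It lies on the opposite strand within C7orf50, which was called higher (0.26 ± 0.11), and the use of strand in the counting is not given in the sources used here. AL157935.2 (-1.33 ± 0.29) overlaps AK1 on the same strand, which was called higher (0.21 ± 0.09), so the division of reads between the 2 is uncertain. LUC7L2, a splicing factor (-0.20 ± 0.07), overlaps the readthrough gene FMC1-LUC7L2, whose log2 fold change was 0.45.

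The remaining named lower genes were of varied function. CLEC7A, the beta-glucan receptor Dectin-1, read 9.38, 11.1 and 10.3 CPM against 7.62, 6.31 and 6.0 CPM (-0.63 ± 0.16). GNPTAB, which tags enzymes for the lysosome, read 148, 161 and 133 CPM against 123, 122 and 116.3 CPM (-0.29 ± 0.08). AFMID, an enzyme of tryptophan breakdown, read 47.0, 50.5 and 49.3 CPM against 40.2, 39.99 and 40.8 CPM (-0.28 ± 0.08). In these genes the groups were apart. JAG1, a ligand of Notch, read 192, 182 and 172 CPM against 150, 165 and 158 CPM (-0.21 ± 0.07), and CAMK2D, a calcium-dependent kinase, had a log2 fold change of -0.42 ± 0.13. RANBP3L (-0.58 ± 0.17) was set apart by 14.4 CPM in NC-mimic replicate 3 against a highest mimic value of 14.2 CPM. DSC2, a desmosomal cadherin (-0.29 ± 0.09), overlapped between the groups. The others were the choline transporter SLC44A2 (-0.22), ARHGAP6 (-0.24), ZMYM3 (-0.25) and MMD (-0.29). Over all genes, 3.89% had every mimic library below every NC-mimic library, and of the 137 genes called lower 114 did.

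The share of genes called higher was largest among the shortest transcripts. Of 189 tested genes under 500 bases long, 21 (11.1%) were called higher and 0 lower, at a median log2 fold change of 0.12. The share called higher was 3.26% of 1593 genes of 500 to 1000 bases, 1.48% of 5052 genes of 1000 to 2000 bases and 0.806% of 6455 genes of 2000 to 4000 bases. Genes under 1000 bases made up 10.97% of the genes tested and 32.6% of those called higher. The median level of genes under 500 bases, relative to the NC-mimic mean, was -0.06, 0.03 and 0.08 in the NC-mimic libraries and 0.15, 0.14 and 0.20 in the mimic libraries on the log2 scale. The groups did not overlap, and the NC-mimic libraries spread over more than the gap between the groups. Across the genes tested, Spearman's rho of log2 fold change with length was -0.14, as a description of genes that share the same 6 libraries.

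**Figure D3:**
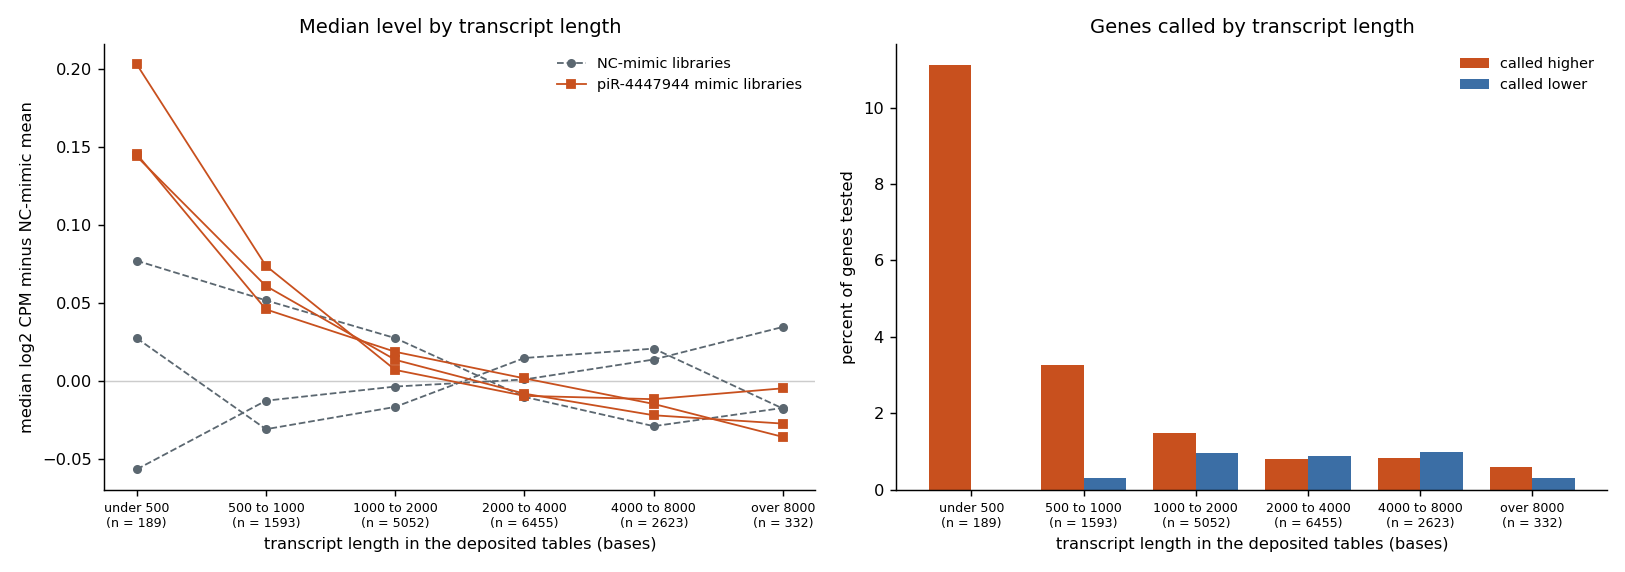
Left, the median log2 CPM of genes in 6 classes of transcript length, relative to the NC-mimic mean, with 1 line per library (dashed for NC-mimic, solid for the mimic). Right, the percent of genes in each class called higher or lower, which was 11.1% and 0% under 500 bases.

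Several named genes had transcripts under 1000 bases. ATP5ME, a small subunit of mitochondrial ATP synthase, read 32.7, 33.2 and 31.9 CPM with NC-mimic and 41.0, 40.7 and 42.9 CPM with the mimic (0.35 ± 0.08). RPL38, of the large ribosomal subunit, read 178, 182 and 189 CPM against 216, 209 and 228 CPM (0.25 ± 0.06). Neither gene had overlapping groups. In TPM, which are scaled by effective length, ATP5ME averaged 1086 with NC-mimic and 1183 with the mimic, a smaller relative rise than in CPM. RPL38 averaged 787 and 951 TPM. Of 56 tested cytosolic ribosomal protein genes, 4 were called higher, against 1.38% of all genes. They were RPL38, RPS29 (0.31 ± 0.10), RPL11 (0.21 ± 0.08) and RPL37 (0.24 ± 0.10). Of the 56, 44 lay above 0 at a median of 0.05, where 48.99% of all genes lay above 0. With 1 library left out, 1 to 10 were called and the median was between 0.0096 and 0.08, and RPL37 was called in 2 of 6 such fits. With the trend over length removed from each library, 0 of 56 were called, 21 lay above 0 and the median turned to -0.03. Ribosomal protein genes have many processed pseudogenes that can share their reads.

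The respiratory chain showed the same dependence. Over all genes tested, 1.38% were called higher. Of 48 nuclear-encoded subunits, NDUFB1 (0.23 ± 0.09) and NDUFB3 (0.24 ± 0.10), both of complex I, were called higher, each in 2 of 6 fits that leave out a library. Of the 13 mitochondrially encoded genes, the short MT-ND3 (0.25 ± 0.07) and MT-ND4L (0.33 ± 0.11) were called higher while 10 lay below 0, among them MT-ND4 (-0.13 ± 0.08), whose transcript overlaps MT-ND4L. In both lists 0 members were called higher with the trend over length removed, and 0 with limma on log2(TPM + 1). In TPM, MT-ND3 averaged 6227 with NC-mimic and 6608 with the mimic, and MT-ND4L 15306 and 16460. Of the ISGs, 13 were still called higher with the trend over length removed, at a median of 0.26. In that setting 1 gene of RNA and DNA sensing, 2 NF-kB targets and 1 NRF2 target were called higher, where 2, 3 and 2 had been. The ATF4 targets, immediate early genes and HLA class I genes kept 3, 3 and 2 genes called higher. The part of RNA length or library preparation in the pattern was not tested.

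The remaining named higher genes belonged to no list. SEM1, a small proteasome subunit, read 39.4, 39.5 and 40.4 CPM with NC-mimic and 51.9, 50.2 and 46.2 CPM with the mimic (0.31 ± 0.08). DNMT3B, a de novo DNA methyltransferase, read 9.13, 9.39 and 11.6 CPM against 13.5, 14.5 and 14.9 CPM (0.52 ± 0.14). PIN4, a prolyl isomerase, read 16.3, 16.1 and 18.6 CPM against 24.2, 20.5 and 23.2 CPM (0.41 ± 0.11). In these 3 genes the groups did not overlap, and each was called in 6 of 6 fits that leave out a library. TMEM160 (0.57 ± 0.16) and the ion channel gene ZACN (0.36 ± 0.10) were also called in 6 of 6. ST20-MTHFS is a readthrough gene (0.81 ± 0.20) that shares exons with MTHFS, whose log2 fold change was -0.05, and AC073896.1 (0.67 ± 0.17) overlaps CNPY2 (0.03) and CS (-0.02) on the same strand. For ST20-MTHFS and AC073896.1 the estimated counts depend on how RSEM divided the reads.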

How the data were processed

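The data were mRNA libraries of LNCaP given either oligo, 3 per group, with 14894247 to 19739559 expected counts each. The authors aligned reads to hg38 with STAR 2.7.1a and deposited RSEM 1.3.0 expected counts, which are estimated, unnormalized counts, and TPM, which the authors scaled by effective length, for 60660 genes. Annotation, trimming and strand are not given in the sources used here.

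Rounded expected counts went into the quasi-likelihood test of edgeR 4.0.16 under R 4.3.3, with TMM scaling, the filterByExpr filter and no replicate term. All genes of a fit entered the Benjamini-Hochberg adjustment. CPM are TMM-scaled. The difference between lines came from an interaction fit over 12 libraries. Standard errors came from the estimate and the F statistic. Scripts were tested on simulated data. Alternatives included DESeq2 1.42.0 and limma 3.58.1 on log2(TPM + 1). Biotypes and positions came from GENCODE v44, which matched 60419 of the 60660 gene identifiers (99.6%). Transcript length is the length that the deposited tables give. Promoters came from RefSeq, and symbols were matched to the first listed start.

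The gene lists and named genes were chosen with earlier results of these data known. Named were the 15 protein-coding genes called higher and the 15 called lower with the smallest p at a mean CPM of at least 5, up to 8 called members of each of 40 lists, and 12 fixed genes, some of which are not reported here. No gene set test was run.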

Additional observations from a re-analysis of the deposited data

How the results depend on the processing

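The genes called higher (224) and lower (137) numbered 485 and 406 with no low-count filter, 103 and 65 with all 12 libraries in 1 fit, 2 and 0 with DESeq2 and shrunken log2 fold changes, 362 and 294 with limma on log2(TPM + 1), 101 and 55 at an absolute log2 fold change over 0.5, and 590 and 339 without replicate 3 of both groups, an alternative chosen after seeing the data. Leaving out single libraries gave 175 to 674 higher and 109 to 334 lower genes. The ISGs called higher (14) numbered 1 with all 12 libraries in 1 fit, 2 with DESeq2, 7 with limma, 8 at an absolute log2 fold change over 0.5, and 7 to 19 with 1 library left out. The causes of these shifts were not tested, apart from the stricter limit, which by construction calls fewer genes. Removing the length trend, also chosen after seeing the data, gave 183 higher and 143 lower.

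Equal replicate numbers did not pair replicates 1 and 2, whose deviations from the group means correlated at 0.0020 and -0.06 over 11907 genes. For replicate 3 the correlation was 0.36, the largest between any NC-mimic and any mimic library. NC-mimic replicate 2 correlated best with mimic replicate 1, at 0.34, so not every library correlated best with its own number. A fit with the replicate block called 304 higher and 204 lower genes and 18 ISGs, and with the length trend also removed 245 and 208. The interaction counted 852 genes at an unadjusted p under 0.05 with the block, against 610. MKI67 turned to -0.0058 with no low-count filter, -0.0043 with the replicate block and between -0.087 and 0.12 with 1 library left out, and JAK1 to -0.11 with limma and -0.0092 without replicate 3 of both groups. Of the named genes' values, 811 kept direction and side of the limits, 233 kept direction only and 7 changed sign. The remaining 1, AGO2 with limma, passed the limits in the lower direction. Depth limited IFNB1, NEFH and PIWIL4, with fewer than 20 counts in a group.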
